A study of Mus musculus with 2 samples.

Results

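The antigen presentation genes of both MHC classes were followed through single cells of the mouse basolateral amygdala. They were chosen by name, not by measured values: 3 class I genes, H2-D1, H2-K1 and B2m, and 4 class II genes, H2-Aa, H2-Ab1, H2-Eb1 and Cd74, of 25120 genes counted in the series. Adult C57BL/6 mice received vehicle or FGF21 (fibroblast growth factor 21, a metabolic hormone) at 1 mg/kg, 1 dose a day for 3 days, and basolateral amygdala of 3 mice was pooled into 1 library per treatment. Dissociated live cells were sorted for the red fluorescent protein tdTomato, which by the series' title was meant to mark cells expressing KLB, the co-receptor of FGF21. What drives tdTomato is not given in the sources used here. With 1 library per treatment there is no replicate, so no test was made, and every difference below compares 2 libraries of pooled tissue.

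The 3 class I genes and the 4 class II genes lie on 3 chromosomes. On GRCm38, H2-K1 lies on chromosome 17 from 33996017 to 34000347 on the minus strand. H2-Ab1 (34257689 to 34269419, plus), H2-Aa (34282744 to 34287823, minus), H2-Eb1 (34305867 to 34316674, plus) and H2-D1 (35262730 to 35267499, plus) follow on the same chromosome. B2m lies on chromosome 2 from 122147686 to 122153083, plus strand, and Cd74 on chromosome 18 from 60803848 to 60812652, plus strand. All 7 are annotated as protein coding.

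MHC class I molecules show peptides from inside a cell to CD8 T cells and are made by nearly all nucleated cells. H2-D1 and H2-K1 encode heavy chains that bind the peptide, and B2m encodes beta-2 microglobulin, the small chain that every classical heavy chain needs to reach the surface. MHC class II molecules show peptides taken up from outside to CD4 T cells and are made mainly by B cells, dendritic cells and macrophages. H2-Aa and H2-Ab1 encode the alpha and beta chains of I-A, H2-Eb1 encodes the beta chain of I-E, and Cd74 encodes the invariant chain that guides class II molecules to the compartment where peptides are loaded. Resting microglia, the macrophages of the brain parenchyma, are known for little class II, and border macrophages of the meninges and vessels for more.

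Genes of both classes are known to share promoter elements read by a common set of factors, among them RFX, CREB-family and NF-Y proteins with the co-activators NLRC5 for class I and CIITA for class II. The promoters of 5 members are shown because class I and class II genes, which differed widely in which cells held their RNA, carry the same arrangement there. Each runs 300 bases, from 250 before to 50 after the RefSeq start site on GRCm38.p6, read along the gene's strand. Capitals mark TGANG followed 15 to 25 bases later by ATTGG on the gene's strand (an arrangement like that of the X2 and Y boxes), and any AANNGAAA on either strand (a motif of the interferon regulatory factor kind).
H2-D1, chr17:35262844-35263143, plus: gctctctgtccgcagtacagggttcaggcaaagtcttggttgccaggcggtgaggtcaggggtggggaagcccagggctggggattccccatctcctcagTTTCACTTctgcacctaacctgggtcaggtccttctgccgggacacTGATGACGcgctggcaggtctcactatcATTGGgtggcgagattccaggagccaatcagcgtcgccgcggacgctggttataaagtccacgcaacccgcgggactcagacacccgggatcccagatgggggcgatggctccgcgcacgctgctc
H2-K1, chr17:34000298-34000597, minus: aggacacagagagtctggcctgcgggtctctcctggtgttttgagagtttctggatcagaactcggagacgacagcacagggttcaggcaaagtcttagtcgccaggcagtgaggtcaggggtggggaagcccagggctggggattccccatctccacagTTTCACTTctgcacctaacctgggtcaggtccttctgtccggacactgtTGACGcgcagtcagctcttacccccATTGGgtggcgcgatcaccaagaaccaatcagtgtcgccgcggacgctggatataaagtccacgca
B2m, chr2:122147437-122147736, plus: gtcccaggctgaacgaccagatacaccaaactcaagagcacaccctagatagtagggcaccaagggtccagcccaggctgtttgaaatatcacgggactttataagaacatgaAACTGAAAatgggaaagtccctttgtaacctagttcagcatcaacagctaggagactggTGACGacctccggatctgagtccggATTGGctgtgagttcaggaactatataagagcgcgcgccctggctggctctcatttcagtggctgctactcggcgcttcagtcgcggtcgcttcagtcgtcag
H2-Aa, chr17:34287774-34288073, minus: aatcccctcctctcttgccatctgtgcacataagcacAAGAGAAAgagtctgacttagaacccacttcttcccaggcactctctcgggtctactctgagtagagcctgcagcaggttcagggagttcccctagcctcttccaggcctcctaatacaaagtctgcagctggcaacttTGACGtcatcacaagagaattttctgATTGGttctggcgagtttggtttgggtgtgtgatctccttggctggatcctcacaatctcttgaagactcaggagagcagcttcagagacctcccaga
H2-Eb1, chr17:34305617-34305916, plus: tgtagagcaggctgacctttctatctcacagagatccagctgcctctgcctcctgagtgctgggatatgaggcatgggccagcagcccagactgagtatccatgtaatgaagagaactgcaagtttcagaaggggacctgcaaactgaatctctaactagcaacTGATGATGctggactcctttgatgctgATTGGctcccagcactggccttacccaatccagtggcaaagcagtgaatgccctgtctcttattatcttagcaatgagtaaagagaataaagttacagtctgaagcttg
H2-Ab1 and Cd74 are named only, and whether they hold these motifs is not given here. All 5 promoters shown held the spaced TGANG and ATTGG pair on the gene's strand, against 2.79% of the 32851 promoters of the table with it on either strand. The motifs were chosen after these promoters were seen, so 5 of 5 was fixed in advance and describes these promoters only. In H2-D1 and H2-Eb1, 2 overlapping TGANG matches precede the same ATTGG. On either strand, ATTGG alone was in 37.4% of all promoters and TGANG alone in 89.4%, so the spaced pair is uncommon in the table and its pieces are not. AANNGAAA was in 4 of the 5 (H2-D1, H2-K1, B2m and H2-Aa) and in 23.9% of all promoters. A match describes letters in this window and shows no binding.

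The libraries held 11130580 (vehicle) and 14585503 (FGF21) UMIs (unique molecular identifiers, each 1 counted RNA molecule). After filtering, 2337 vehicle and 1935 FGF21 cells were used, with medians of 4232 and 6838 UMIs. Clusters, made without the antigen presentation genes and named from marker lists, gave 1416 vehicle and 889 FGF21 microglia-like cells, 411 and 624 oligodendrocyte precursor-like (OPC-like) cells and 99 and 192 astrocyte-like cells. Border macrophage-like cells numbered 40 and 13, and leukocyte-like cells 10 and 13. The 7 other classes (oligodendrocyte-like, mural-like, endothelial-like, fibroblast-like, choroid plexus-like, erythroid-like and neuron-like) held 9 to 181 cells a library. Neuron-like cells were 14 and 21, and Klb itself was counted 3 times in vehicle cells and 0 times in FGF21 cells, while tdTomato RNA was seen in 22.3% and 34.9% of cells. Vehicle and FGF21 microglia-like cells fell in different clusters: 1395 vehicle cells beside 28 of FGF21 in one, led by Cysltr1, Abca9 and P2ry12, and 858 FGF21 cells beside 14 of vehicle in the other, led by Ccl4, Cebpa and Anxa3. OPC-like cells were split likewise, with 362 vehicle and 97 FGF21 cells in one cluster and 14 and 479 in another. The 2 libraries shared 12 cell barcodes, 6 of them among the cells used.

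Levels are CPM, the UMIs of a gene per 1000000 UMIs of a class, with exact Poisson 95% intervals, ratios have exact conditional-binomial and shares exact Clopper-Pearson 95% intervals, and all cover counting error only. Free RNA from broken cells adds molecules to cells that do not make them. Its share was estimated from 16 pairs of a class and a marker list that the class should lack: such lists reached a median of 29.5% of their whole-library level in the vehicle (19.9% to 49.5%) and 36.5% in the FGF21 library (23.7% to 67.5%). A gene's background below is this share of its CPM over the whole library.

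Class I RNA was highest in leukocyte-like, border macrophage-like, endothelial-like and microglia-like cells, and at or near background in several others. In leukocyte-like cells H2-D1 stood at 3158 (2623 to 3771) CPM for vehicle and 2403 (2046 to 2804) CPM for FGF21. Border macrophage-like cells had 1114 and 1056 CPM of H2-D1, and endothelial-like cells 886 and 721 CPM. Microglia-like cells followed with 429 (413 to 446) and 366 (351 to 383) CPM. The order leukocyte, border macrophage, endothelial, microglia was the same in both libraries, but the intervals of border macrophage-like and endothelial-like cells overlapped in each. Mural-like cells held 268 and 230 CPM and OPC-like cells 203 and 187 CPM.

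Astrocyte-like cells held 88.5 and 87.9 CPM of H2-D1 and oligodendrocyte-like cells 72.5 and 74.6 CPM, against a background of 101 and 93.5 CPM, so their H2-D1 was not detectable above free RNA. In OPC-like cells the background made up 49.9% of the H2-D1 level over both libraries, in microglia-like cells 24.4%. Microglia-like cells exceeded astrocyte-like cells 4.85-fold (3.49 to 6.94) in vehicle and 4.17-fold (3.43 to 5.12) in FGF21.

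H2-K1 followed a like order at the top: 1527 and 1597 CPM in leukocyte-like, 702 and 331 CPM in endothelial-like, 482 and 288 CPM in border macrophage-like and 275 and 232 CPM in microglia-like cells. Unlike H2-D1, it was above background in astrocyte-like cells, at 128 (95.4 to 168) CPM (vehicle) and 134 (114 to 157) CPM (FGF21) against backgrounds of 61.6 and 57.8 CPM. In OPC-like cells H2-K1 stood lower than in astrocyte-like cells, at 95.5 and 90.3 CPM, 0.747 (0.554 to 1.02) times the astrocyte-like level in vehicle, an interval that holds 1, and 0.672 (0.563 to 0.807) times in FGF21. For H2-D1 the same contrast ran the other way, 2.30 (1.64 to 3.31) and 2.13 (1.74 to 2.62).

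B2m, the shared light chain, was flatter among immune cells. Leukocyte-like cells had 2925 and 3149 CPM, border macrophage-like cells 2240 and 2496 CPM and microglia-like cells 2179 and 1937 CPM. Leukocyte-like cells thus exceeded microglia-like cells 1.34-fold (1.11 to 1.62) in B2m but 7.36-fold (6.09 to 8.83) in H2-D1 in vehicle. In FGF21 these were 1.63-fold (1.41 to 1.86) and 6.56-fold (5.55 to 7.70). Endothelial-like cells had 1405 and 1209 CPM of B2m. OPC-like cells held 444 and 451 CPM and astrocyte-like cells 428 and 419 CPM, close to the background of 423 and 382 CPM.

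**Figure D1:**
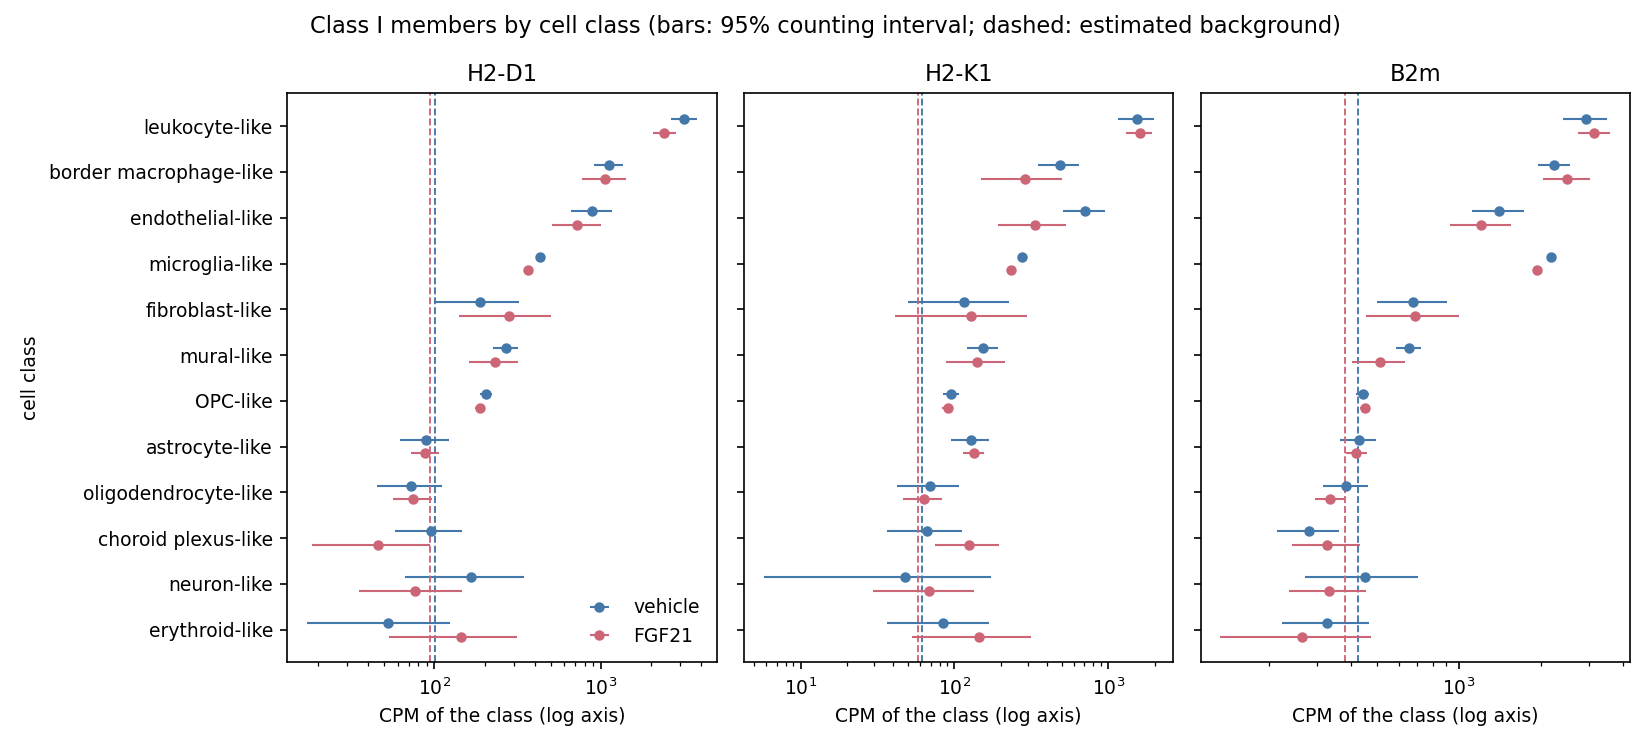
CPM of H2-D1, H2-K1 and B2m (log axes) in 12 cell classes of the vehicle (blue) and FGF21 (red) libraries, with 95% counting intervals as bars and the estimated background of each library as dashed lines. Leukocyte-like, border macrophage-like, endothelial-like and microglia-like cells lie above the background for all 3 genes, and astrocyte-like cells lie above it for H2-K1 but not for H2-D1.

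The ratio of H2-D1 to H2-K1 UMIs differed between the larger classes and was alike in the 2 libraries within each. It was 1.56 (1.47 to 1.66) in vehicle and 1.58 (1.47 to 1.69) in FGF21 microglia-like cells. OPC-like cells had 2.13 (1.84 to 2.46) and 2.07 (1.86 to 2.30). Astrocyte-like cells had 0.692 (0.440 to 1.08) and 0.654 (0.507 to 0.841), below those of microglia-like and OPC-like cells in both libraries with no overlap of the intervals. Mural-like cells, at 1.75 and 1.64, and oligodendrocyte-like cells, at 1.05 and 1.18, had wide intervals. With the background subtracted the OPC-like ratio was 3.03 and 2.87, the microglia-like ratio stayed at 1.54 and 1.56, and nothing was left of the astrocyte-like H2-D1. H2-D1 and H2-K1 are related genes, and how reads that fit both were counted is not given in the sources used here. The ratio is therefore set only between classes, and its absolute value is uncertain.

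**Figure D2:**
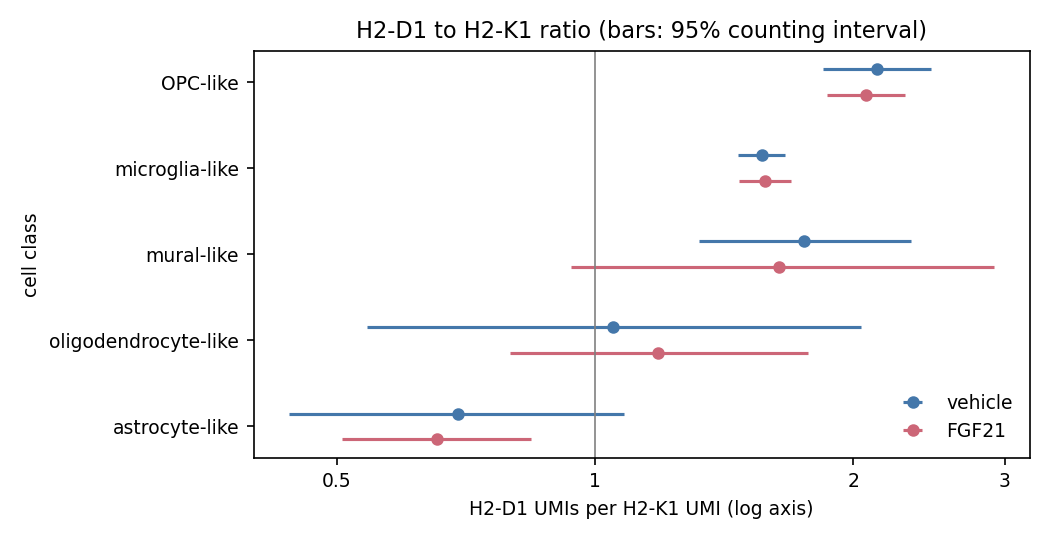
H2-D1 UMIs per H2-K1 UMI (log axis) in the 5 classes with at least 40 cells in each library, with 95% counting intervals, for vehicle (blue) and FGF21 (red). The points of the 2 libraries lie close together in each class, with OPC-like cells near 2.1, microglia-like cells near 1.6 and astrocyte-like cells below 1.

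Within the microglia-like class, 1 small cluster stood apart in class I. It held 7 vehicle and 3 FGF21 cells and had the interferon-response genes Oasl2, Ifi204, Ifit3 and Ifit2 among its leading genes. H2-D1 was 1131 (800 to 1553) CPM in its vehicle and 516 (266 to 901) CPM in its FGF21 cells, against 427 and 366 CPM in the main vehicle and FGF21 clusters. H2-K1 stood at 774 and 387 CPM against 271 and 232 CPM, and B2m at 4257 and 3137 CPM against 2167 and 1937 CPM. For B2m the intervals of this cluster, 3588 to 5014 and 2459 to 3945 CPM, lay above those of the main clusters in both libraries. For H2-D1 they did so in vehicle, while the 3 FGF21 cells overlapped the main cluster. These cells held 2 and 6 class II UMIs in all.

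Between the treatments, no class I gene was 1.5-fold apart in a class with at least 50 cells in each library. In microglia-like cells the FGF21 library was slightly lower: 0.854 (0.805 to 0.906) times the vehicle level for H2-D1, 0.846 (0.786 to 0.911) for H2-K1 and 0.889 (0.866 to 0.912) for B2m. Beside this, 17.4% of the 11370 genes with at least 50 UMIs in microglia-like cells were 1.5-fold apart in either direction (12.1% higher in FGF21 and 5.27% lower), and the median of all these genes was 0.03 on the log2 scale. In OPC-like cells the ratios were 0.920 (0.832 to 1.02), 0.946 (0.817 to 1.10) and 1.02 (0.951 to 1.09), with 10.3% of genes 1.5-fold apart (5.69% higher, 4.62% lower). In astrocyte-like cells they were 0.994 (0.675 to 1.49), 1.05 (0.765 to 1.47) and 0.980 (0.823 to 1.17), with 20.0% of genes 1.5-fold apart (11.9% higher, 8.14% lower). All intervals of OPC-like and astrocyte-like cells held 1. Among the smaller classes, H2-K1 was at 0.472 (0.252 to 0.847) in endothelial-like cells, on 42 and 17 UMIs. H2-D1 was at 0.761 (0.598 to 0.971) in leukocyte-like and B2m at 0.779 (0.603 to 0.997) in mural-like cells. The intervals of all other class I ratios of the smaller classes held 1. Summed over all cells, the FGF21 library had 0.749 times the H2-D1, 0.756 times the H2-K1 and 0.728 times the B2m of the vehicle. Microglia-like cells made up 60.6% of the vehicle and 45.9% of the FGF21 cells, and what part the make-up and the level per cell each have in the whole-library ratio was not tested.

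The share of microglia-like cells with an H2-D1 UMI was 67.3% in vehicle and 74.7% in FGF21, whose cells were sequenced deeper. With each cell thinned to 2000 UMIs, which left out 66 and 21 shallower cells, it was 48.7% and 45.4%, the order of the CPM. For H2-K1 the thinned shares were 38.1% and 36.1%. B2m was seen in 96.3% and 95.4% of thinned microglia-like cells.

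Class II RNA was concentrated in a few cells. Of 703 vehicle and 2477 FGF21 class II UMIs, 166 (23.6%) were in 1 vehicle cell and 1276 (51.5%) in 6 FGF21 cells, the 7 cells that held 40 or more each. The cell with the most, in FGF21, had 244 Cd74, 153 H2-Ab1, 100 H2-Aa and 73 H2-Eb1 UMIs among 11959, with 92 UMIs of Lyz2 (lysozyme of myeloid cells) and 28 of Ccr2 (a chemokine receptor of monocytes). The next 3, also in FGF21, held 247, 178 and 172 class II UMIs. Their Lyz2 counts were 48, 38 and 15. In each the border macrophage list, at 21, 31 and 50 UMIs, exceeded every leukocyte list, while the microglia list, which was not among the lists compared, had 66, 66 and 42 UMIs (136 in the highest cell, led by the monocyte list with 28). Of the border macrophage list UMIs, 15, 10 and 20 were of Maf. Maf also had 3 to 9 UMIs in each microglia-like cell with 8 or more class II UMIs. In the first of the 3 the monocyte list had 7 UMIs, and Ccr2 had 7, so without Maf the monocyte list would lead. Of these 3 cells, 2 had 7 UMIs each of Mgl2, a lectin of dendritic cells and macrophages. The vehicle cell held 80 Cd74, 36 H2-Ab1, 29 H2-Eb1 and 21 H2-Aa UMIs among 3276. It was clustered as border macrophage-like but had only 11 UMIs of that list, 8 of them Maf, beside 55 of the microglia list and 17 of Lyz2.

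The last 2 of the 7, with 65 and 44 class II UMIs, carried 39 and 42 UMIs of Igkc, the kappa light chain of antibodies, and 16 and 10 of Ighm. Their leading marker list was that of B cells. All 4 class II genes were present in each of the 7 cells. Over these cells the 3 H2 genes together had 1.08 UMIs per Cd74 UMI in vehicle and 1.27 in FGF21. The 7 cells were picked for their class II counts, so these values describe them only.

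**Figure D3:**
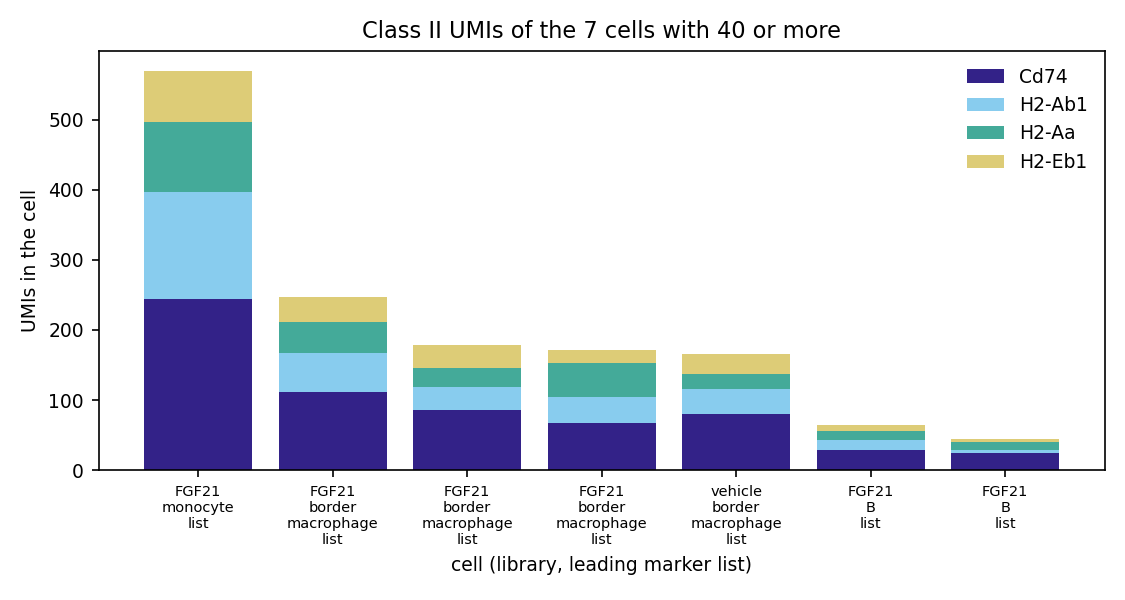
UMIs of Cd74, H2-Ab1, H2-Aa and H2-Eb1 stacked for each of the 7 cells with 40 or more class II UMIs, labelled by library and by the leukocyte or border macrophage marker list with the most UMIs in the cell, or for the vehicle cell by its class. The highest has 570 UMIs and the lowest 44, and all 4 genes appear in each bar.

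Other leukocyte-like cells held class I without class II. The 4 vehicle and 6 FGF21 cells led by T or NK cell lists had 0 and 3 class II UMIs, the 3 being Cd74 in 1 cell, but 2303 and 2832 CPM of H2-D1 and 1637 and 2466 CPM of H2-K1. The 3 vehicle cells led by the monocyte list held 3 Cd74 UMIs and no H2 class II UMI, and each library had 1 cell led by the neutrophil list, with 1 and 0 class II UMIs. The vehicle leukocyte-like class thus had 4 class II UMIs in 10 cells, 104 (28.2 to 265) CPM, and the FGF21 class 1279 in 13 cells, 19089 CPM. Without its 6 high cells the FGF21 class had 87.1 CPM. Where the antigen presentation genes took part in the clustering, 21.7% instead of 51.6% of the FGF21 library's class II UMIs fell in this class, and under a stricter cell filter the vehicle's high cell joined it. The libraries differ here in whether a few class II cells were caught, and with 1 pool of 3 mice each this cannot be told apart from a treatment difference.

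Border macrophage-like cells, as clustered, held few class II UMIs outside 1 cell. In vehicle, 166 of their 193 class II UMIs were in the cell described above, and 18 in 1 other cell. The cell with 166 had only 11 UMIs of the border macrophage list. The class stood at 2068 CPM with that cell and 299.9 CPM without it. The 13 FGF21 cells held 3 UMIs, all Cd74, 72.0 (14.8 to 210.4) CPM beside a background of 64.2 CPM. That count depends on the assignment of cells: the 3 FGF21 cells described above in which the border macrophage list exceeded the leukocyte lists, with 597 class II UMIs, were clustered with the leukocyte-like cells. In 1 of the 3 the border macrophage list did so only with Maf counted. For class I, H2-D1 in border macrophage-like cells stood at 2.60 (2.11 to 3.16) times the microglia-like level for vehicle and 2.88 (2.09 to 3.88) times for FGF21, where 1 cell held 26.0% and 31.8% of the UMIs. H2-K1 stood at 1.76 (1.28 to 2.36) and 1.24 (0.639 to 2.17) times, and B2m at 1.03 (0.892 to 1.18) and 1.29 (1.05 to 1.56) times, so the interval held 1 for H2-K1 in FGF21 and for B2m in vehicle.

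In microglia-like cells class II RNA was sparse and mostly Cd74. The vehicle cells held 281 Cd74, 51 H2-Ab1, 23 H2-Aa and 11 H2-Eb1 UMIs among 1416 cells. The FGF21 cells held 339, 107, 78 and 44 among 889 cells. As levels, Cd74 was 48.1 and 61.1 CPM, H2-Ab1 8.73 and 19.3 CPM, H2-Aa 3.94 and 14.1 CPM and H2-Eb1 1.88 and 7.93 CPM. The 3 H2 genes had 0.302 (0.234 to 0.387) UMIs per Cd74 UMI in vehicle and 0.676 (0.569 to 0.801) in FGF21, below the 1.08 and 1.27 of the 7 high cells. No background was subtracted here. In OPC-like cells, which should lack class II, the same ratio was 0.471 (0.299 to 0.726) and 0.853 (0.704 to 1.03). What part free RNA has in the difference between the libraries was not tested.

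Before any correction for free RNA, 3 of the 4 class II genes were over 1.5-fold higher in FGF21 microglia-like cells, where 12.1% of the 11370 genes measured were: H2-Aa 3.57-fold (2.22 to 5.96), H2-Ab1 2.21-fold (1.57 to 3.15) and H2-Eb1 4.22-fold (2.14 to 9.05). Cd74 was 1.27-fold (1.08 to 1.49), but 1.57-fold with cells thinned, 1.90-fold where the antigen presentation genes took part in the clustering and 1.76-fold without the 9 cells with 8 or more class II UMIs. In the clustering with these genes, class II UMIs left the FGF21 leukocyte-like class, so cells had changed class. What part this has in the 1.90 was not tested. In OPC-like cells all 4 class II genes were over 1.5-fold higher, where 5.69% of genes were: H2-Aa 6.68-fold (4 and 54 UMIs), H2-Ab1 2.67-fold, H2-Eb1 2.57-fold and Cd74 1.73-fold. Astrocyte-like cells had 6 and 59 Cd74 UMIs, 3.32-fold (1.44 to 9.41) higher in FGF21. Over the whole library H2-Aa was 5.39-fold, H2-Ab1 3.56-fold, H2-Eb1 3.67-fold and Cd74 1.98-fold higher, the high cells included.

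In most classes that should lack class II its level was higher in the FGF21 library. Summed class II in astrocyte-like cells stood at 22.1 (vehicle) and 82.1 (FGF21) CPM. It was 24.9 and 89.3 CPM in mural-like, 20.7 and 56.6 CPM in oligodendrocyte-like, 14.3 and 85.3 CPM in choroid plexus-like, 10.6 and 96.4 CPM in erythroid-like and 34.3 and 74.9 CPM in OPC-like cells. Neuron-like cells had 23.8 and 76.9 CPM, on 1 and 9 UMIs. Endothelial-like cells went the other way, with 66.9 and 39.0 CPM on 4 and 2 UMIs, and so did fibroblast-like cells, with 43.3 and 25.5 CPM on 3 and 1 UMIs. The estimated background was 19.6 and 64.2 CPM. Microglia-like cells had 62.6 and 102 CPM. With the background subtracted at the median share they had 43.1 CPM in vehicle and 38.2 CPM in FGF21. Over the 16 pairs the share ran from 19.9% to 49.5% in vehicle and from 23.7% to 67.5% in FGF21. No other share was tried, so which library is higher after subtraction is not settled.

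By gene, the background made up 41.6% of the microglia-like Cd74 level over both libraries, 60.3% of that of H2-Ab1, 66.2% of H2-Aa and 91.1% of H2-Eb1. After subtraction at the median share the FGF21 to vehicle ratio in microglia-like cells was 0.819 for Cd74, 0.972 for H2-Ab1 and 1.53 for H2-Aa. In OPC-like cells it was 0.775 for Cd74, 0.857 for H2-Ab1 and 0.821 for H2-Eb1. These subtracted ratios have no interval, and other shares were not tried. For H2-Eb1 in microglia-like and H2-Aa in OPC-like cells too little was left over the background for a ratio. In astrocyte-like cells the subtracted Cd74 ratio was 10.9, but the 6 vehicle UMIs, at 14.7 CPM against a background of 13.2 CPM, leave little to divide by, and with thinned cells it was 1.69 (0.605 to 5.82), an interval that holds 1. A treatment difference of class II within microglia-like or OPC-like cells was therefore not detectable apart from free RNA.

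**Figure D4:**
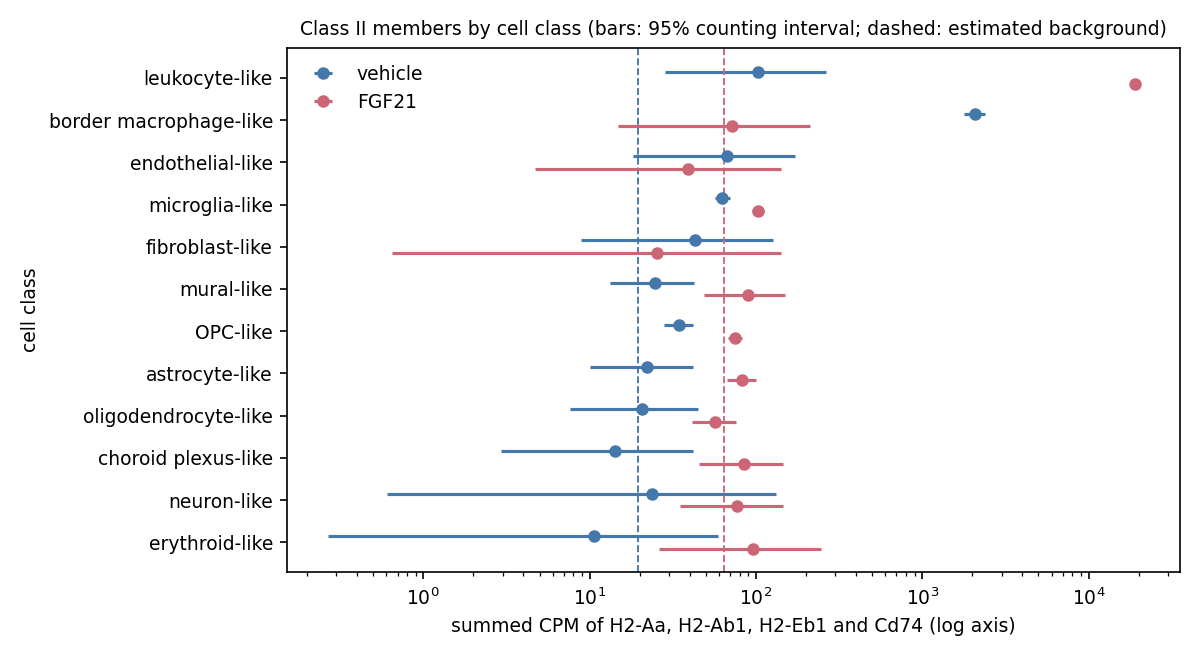
Summed CPM of the 4 class II genes (log axis) in 12 cell classes of the vehicle (blue) and FGF21 (red) libraries, with 95% counting intervals and the estimated background as dashed lines. FGF21 leukocyte-like and vehicle border macrophage-like cells lie far to the right, and most other FGF21 classes lie near the background of 64.2 CPM.

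Shares of cells with a class II UMI were also higher in the FGF21 library in both large classes. A class II UMI was seen in 15.5% (13.7 to 17.5) of vehicle and 42.4% (39.1 to 45.7) of FGF21 microglia-like cells, and in 22.6% and 48.2% of OPC-like cells, a class that should lack class II, at median depths of 4181 and 6033 UMIs in microglia-like and 6711 and 9114 UMIs in OPC-like cells. Thinned to 2000 UMIs, the shares were 8.22% and 19.9% in microglia-like and 9.85% and 16.0% in OPC-like cells. The thinned intervals of the classes overlapped in both libraries (6.81 to 9.82 and 7.13 to 13.2 in vehicle, 17.3 to 22.7 and 13.2 to 19.1 in FGF21). A small number of microglia-like cells had several Cd74 UMIs: 32 vehicle and 48 FGF21 cells had 2 or more. Of them, 9 (7 vehicle, 2 FGF21) had 8 or more class II UMIs, a count that 0 of the OPC-like cells reached. The highest held 23 Cd74 UMIs and no H2 class II UMI. Some OPC-like cells also had 2 or more Cd74 UMIs: 68 were in 62 vehicle and 238 in 191 FGF21 cells, at most 3 and 4 in a cell. How many OPC-like cells had 2 or more is not given here.

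Microglia-like cells with more Cd74 also had more class I. In vehicle, H2-D1 was 404 (387 to 422) CPM in 1255 cells without a Cd74 UMI, 518 (460 to 581) CPM in 129 cells with 1 and 925 (781 to 1089) CPM in 32 cells with 2 or more. In FGF21 it was 341 (323 to 360), 381 (348 to 417) and 556 (488 to 632) CPM in 645, 196 and 48 cells. H2-K1 was 263 CPM in vehicle cells with no Cd74 UMI and 542 CPM in those with 2 or more, and 217 and 302 CPM in FGF21. B2m was 2146 and 3006 CPM in vehicle and 1869 and 2416 CPM in FGF21. For all 3 class I genes the intervals of these end groups did not overlap in either library. The median depth of these cell groups was 4166, 4389 and 4845 UMIs in vehicle and 5867, 6134 and 8613 UMIs in FGF21. Without the interferon-marked cluster the top groups held 925 and 558 CPM of H2-D1. They then had 32 vehicle and 47 FGF21 cells, against 32 and 48 with it, so leaving it out could hardly change them. The cells of a group come from 1 library and are not replicates.

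The regulators of both classes were rarely counted. Ciita, the co-activator of class II genes, had 8 UMIs in FGF21 leukocyte-like cells, all in 3 of the high class II cells (5, 2 and 1). It had 3 UMIs in all 2305 microglia-like cells and 5 in OPC-like cells. Nlrc5, the co-activator of class I genes, had 26 vehicle and 9 FGF21 UMIs in microglia-like cells, 6 of the vehicle's in the 7 cells of the interferon-marked cluster. Among 20 transcription factors and interferon inputs, 18 were measured in microglia-like cells. Rfxank, a subunit of the RFX factor, was 1.79-fold (1.26 to 2.56) higher in FGF21 and no other was 1.5-fold apart, beside 17.4% of all genes. Ifngr1, the interferon gamma receptor chain, was at 0.785 and Irf8 at 0.853 times the vehicle level, Spi1 at 1.05 and Jak1 at 0.911.

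Of 16 genes measured that supply and load class I peptides, none was 1.5-fold apart in microglia-like cells, where 17.4% of all genes were. The counting intervals of 5 of them lay below 1 and those of 3 above. The share of all genes with such intervals is not given here, so these counts have nothing to be set against. Calr and Canx, chaperones of the endoplasmic reticulum, stood at 0.918 and 0.910, Pdia3 at 0.773 (0.738 to 0.811) and Tapbp, which holds class I to the peptide transporter, at 0.814 (0.765 to 0.867) times the vehicle level. The list's median was -0.07 on the log2 scale. In OPC-like cells, where 10.3% of all genes were 1.5-fold apart, 1 of 15 was lower: Erap1, the peptide-trimming enzyme, at 0.600 (0.459 to 0.787), against 0.740 (0.630 to 0.869) in microglia-like cells. In astrocyte-like cells, where 20.0% were, 1 of 9 was higher, the immunoproteasome subunit Psmb10, at 1.65 (0.795 to 3.84), an interval that holds 1.

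Of the class II loading machinery, none of 10 measured genes was 1.5-fold apart in microglia-like cells, where 17.4% of all genes were. The intervals of 3 lay below 1: Ctss, Lgmn and March1. The share of all genes with such intervals is not given here. Ctss, the protease that trims the invariant chain and an abundant microglial transcript, was 7985 and 6500.1 CPM, 0.814 (0.803 to 0.825) times the vehicle level. Lgmn stood at 0.931 (0.904 to 0.958), March1, a ubiquitin ligase that removes class II from the surface, at 0.732 (0.670 to 0.799), Ctsl at 1.00 and Cd63 at 0.953. None of 6 measured in OPC-like and 4 in astrocyte-like cells was 1.5-fold apart.

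Among all genes measured in microglia-like cells 17.4% were 1.5-fold apart. Of 9 other class I heavy chains and relatives measured there, H2-T22 (1.54-fold, 1.11 to 2.15) and H2-T24 (1.59-fold, 1.13 to 2.25) were higher in FGF21. Cd1d1, which presents lipids, was lower at 0.625 (0.455 to 0.853). The most abundant, Hfe, Fcgrt, H2-T23 and H2-M3, stood at 0.916, 1.10, 0.902 and 1.00. H2-M3 was 1.78-fold (1.11 to 2.97) higher in OPC-like cells, 1 of 5 measured, beside 10.3% of all genes 1.5-fold apart. The background was 55.1% of the H2-M3 level there. Reads of the H2-T genes can be split among near-identical copies, and their counts are uncertain.

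Of 13 interferon-response genes measured in microglia-like cells, Ifit3 (1.92-fold, 1.23 to 3.03), Isg15 (1.54-fold, 0.888 to 2.70) and Rtp4 (1.55-fold, 1.09 to 2.23) were higher and Ifitm3 (0.614, 0.474 to 0.791) lower in FGF21, on 24 to 170 UMIs a library. Among all genes measured there 17.4% were 1.5-fold apart. With the background subtracted Ifit3 (1.94) and Rtp4 (1.53) stayed over 1.5-fold, while Isg15 (1.47) and Ifitm3 (0.848) did not, the background making up 28.3% and 49.2% of their levels. The most abundant, Irf9, Bst2, Stat2 and Igtp, stood at 0.963, 0.984, 0.821 and 0.865. In OPC-like cells Xaf1 and Ifitm3 were lower, at 0.646 (0.409 to 1.03) and 0.362 (0.248 to 0.525), of 9 measured, beside 10.3% of all genes. The background there was 83.8% of the Xaf1 and 71.1% of the Ifitm3 level, and the estimated Ifitm3 background itself was 0.426 times the vehicle's in FGF21. In astrocyte-like cells Irf2 (0.502) was lower among 14 transcription factors and interferon inputs, beside 20.0% of all genes 1.5-fold apart. The background was 72.6% of the Irf2 level there.

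Among 8 costimulation and checkpoint genes measured in microglia-like cells, Cd274, which encodes PD-L1, was lower at 0.575 (0.334 to 0.966), on 44 and 24 UMIs. Cd86, the main costimulatory ligand counted, stood at 0.774, Havcr2 at 0.789, Lgals9 at 1.20 and Icosl at 1.06. In OPC-like cells Cd86 and Cd83 were lower, at 0.517 and 0.658, though the background was 133% of the Cd86 level there, and in astrocyte-like cells Lgals9 stood at 1.61 (0.962 to 2.85). Across the 6 lists, 9 of 74 genes measured in microglia-like cells were 1.5-fold apart, 12.2%, against 17.4% of all genes. In OPC-like cells 6 of 59 were, 10.2% against 10.3%, and in astrocyte-like cells 3 of 33, 9.09% against 20.0%.

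Ranked by Pearson correlation of log2(CPM + 1) over the 16 columns of a class and library with at least 20 cells, the genes most like H2-D1 were Asgr2 (r = 0.916), Tgfbrap1 (0.911), Gbp7 (0.909), Il10rb (0.885) and Coro2a (0.879). H2-K1 had 0.902 and B2m 0.869. Those most like Cd74 were Lyz2 (0.844), Wfdc17 (0.832), Adam33 (0.826), Rps29 (0.814) and Ccl5 (0.810), beside 0.845 for H2-Aa. Leukocyte-like cells, under 20 in each library, have no column, so the highest Cd74 level, 8418 CPM in FGF21, had no part. Border macrophage-like and endothelial-like cells have a vehicle column only. In the vehicle border macrophage-like column 1 cell held 81.6% of the Cd74 UMIs. The columns share 2 libraries and their depth, and the values describe likeness over these columns only.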

How the data were processed

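Single cells were profiled on the BD Rhapsody system with whole transcriptome libraries, per the labels' protocols. Each deposited table holds counts of molecules for every cell and gene, corrected for sequencing errors in the molecular identifiers, and names the BD WTA Rhapsody Analysis Pipeline, version 1.9.1, per the file headers. The build was GRCm38, per the submitters' processing notes. For the annotation, the handling of reads that fit several genes and the cell calling, the tool settings were not given in the sources used here.

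The members and lists were chosen with earlier results of these data known. Genes that lacked a column in 1 library were set to 0 for it. Cells with at least 500 UMIs, 300 genes and at most 25% mitochondrial UMIs were kept, and 17 vehicle and 16 FGF21 doublets called by Scrublet (0.767% of cells) were removed. The rest were clustered in scanpy 1.11.5 on 2000 variable genes without the antigen presentation genes, with 30 components, 15 neighbours and Leiden resolution 1.0, into 16 clusters, and the cluster of border macrophage-like and leukocyte-like cells was clustered again into 5. Names rest on marker lists, with a best score at least 0.5 above the next and 3 markers in 10% of cells, and on rules set after the clusters were seen. Libraries were not integrated.

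UMIs were summed per class and library. Fold changes were counted among genes that reached 50 UMIs in the class, summed over the libraries, with intervals of 95% by scipy 1.17.1. The text names all 7 members, Ciita and Nlrc5, the 4 members of each other list with the most UMIs in microglia-like cells, list members past 1.5-fold, and the 5 genes most like H2-D1 and Cd74. The cells high in class II, the interferon-marked cluster, the groups of cells by Cd74, the markers quoted for single cells, March1 and the promoter motifs were chosen after their values were seen. Listed genes without a column (H2-T10, H2-Bl, Cd1d2, H2-Ea, Ifi30) were not analysed here. The ratio intervals and background share were tested on simulated data, and thinning on the leukocyte-like cells. The simulated counts had Poisson spread only and the same background share in every class. They therefore do not check the intervals against spread between cells, or the share where it differs between classes.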

Additional observations from a re-analysis of the deposited data

Results flagged for a closer look

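Class II UMIs were also present in barcodes that no comparison used. The barcodes that failed the cell filter held 13 class II UMIs in the vehicle library (571 barcodes, 28.7 CPM, at most 1 in a barcode) and 37 in the FGF21 library (504 barcodes, 102 CPM, at most 4 in a barcode). The called doublets held 10 class II UMIs in 17 vehicle and 17 in 16 FGF21 barcodes, with at most 6 in a barcode. No barcode left out was as high in class II as the 7 cells with 40 or more.

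Before background subtraction, the Cd74 ratio of FGF21 over vehicle pointed in different directions by class. It was 0.0686 in border macrophage-like cells, against 1.27 in microglia-like, 1.73 in OPC-like, 3.32 in astrocyte-like and 81.3 in leukocyte-like cells. After subtraction at the median share it was below 1 in microglia-like (0.819) and OPC-like cells (0.775) too. In astrocyte-like (10.9) and leukocyte-like cells (92.9) it stayed above 1. The difference between classes was not tested. The border macrophage-like and leukocyte-like values rest on 1 vehicle and 6 FGF21 cells and on how these were clustered. Of the 6, 3 exceeded every leukocyte list in the border macrophage list (1 of them only with Maf counted), held 264 Cd74 UMIs and lie in the leukocyte-like class. The vehicle cell lies in the border macrophage-like class with 11 UMIs of that list, 8 of them Maf.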

How the results depend on the processing

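The class I ratios of FGF21 over vehicle stayed below 1 in microglia-like cells under every alternative run, at 0.820 to 0.867 for H2-D1, 0.812 to 0.886 for H2-K1 and 0.853 to 0.898 for B2m, where thinning cells to 2000 UMIs gave 0.858 and median-of-ratios size factors 0.853. None reached 1.5-fold. Microglia-like over astrocyte-like ratios moved with background subtraction to 3.22 (vehicle) and 2.28 (FGF21) for H2-K1, and with thinning to 4.13 for B2m in FGF21. For H2-D1 and B2m too little was left in astrocyte-like cells for a ratio. Background subtraction at the median share reversed the class II ratios of H2-Ab1 in microglia-like cells (0.972) and of Cd74 (0.775), H2-Ab1 (0.857) and H2-Eb1 (0.821) in OPC-like cells, and moved Cd74 to 0.819 and H2-Aa to 1.53 in microglia-like and Cd74 to 10.9 in astrocyte-like cells. Other shares were not tried, so these directions hold for the median share only. Cd74 in microglia-like cells was 1.57 with thinning and 1.90 when clustered with the antigen presentation genes, where H2-Ab1 was 3.61, and, in an alternative chosen after seeing the data, 1.76 without the cells with 8 or more class II UMIs. The clustering with these genes moved class II UMIs out of the FGF21 leukocyte-like class. What part such cells have in the 1.90 and 3.61 was not tested. The class II level of vehicle border macrophage-like cells was 2450 CPM with thinning, 1405 CPM as a mean over cells, 392 CPM under the stricter filter, 319 CPM when clustered with these genes and 299.9 CPM without the highest cell, which is also the value without the 7 high cells. In FGF21 leukocyte-like cells it was 16462 CPM with thinning, 16519 CPM as a mean over cells, 12881 CPM without the highest cell, 8164 CPM when clustered with these genes and, added after seeing the data, 87.1 CPM without the 7 high cells. In vehicle leukocyte-like cells it was 3893 CPM under the stricter filter. The share of class II UMIs in FGF21 leukocyte-like cells was 54.6% with thinning, 21.7% when clustered with these genes and 0.250% without the 7 cells. In vehicle it was 24.5% under the stricter filter and 28.0% with the border macrophage-like cells counted in, the latter added after seeing the data. Shares of microglia-like cells with a class II UMI fell with thinning to 8.22% and 19.9%. Genes of the 6 lists 1.5-fold apart in microglia-like cells numbered 9 of 74 with a minimum of 50 UMIs, 15 of 82 with 20 and 24 of 93 with 1, which is 12.2%, 18.3% and 25.8%, against 17.4%, 21.7% and 45.6% of all genes. Other than where the alternative removed cells, genes or background by its construction, the cause was not tested. No paired analysis was possible because each treatment has 1 library. Depth limits what can be said of classes under 50 cells and of Ciita and Nlrc5.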
